A study of Mus musculus with 16 samples.

Results

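The difference between the response of mouse aorta and the response of mouse liver to estradiol (E2, the main natural estrogen) was measured gene by gene. The difference is the E2 effect in aorta minus the E2 effect in liver, each a log2 fold change of E2 against vehicle. It was described for the genes expressed in both tissues, chosen by a mean of at least 1 CPM (counts scaled to a library total of 1e6) in the 8 aorta libraries and in the 8 liver libraries. Of 24011 gene symbols, 11630 met this rule, 968 reached 1 CPM in aorta alone, 1393 in liver alone and 10020 in neither. All but a pair of them, Gm8909 and H2-Ea-ps, passed the filter on low counts, which left 11628 genes tested among 14190 in all. Since both tissue means were used to select the genes, the levels themselves are given as a description. The members just inside the threshold in liver were Mpp2 (9.41 CPM in aorta and 1.00 CPM in liver), Ppp1r26 (1.21 and 1.00 CPM) and Clec4e (2.43 and 1.00 CPM). Just outside lay Kdelr3 (26.8 CPM in aorta) and Wisp1 (2.81 CPM in aorta), with liver means of 1.00 and 0.999 CPM, and Zfp758 (2.21 and 0.999 CPM). Membership of 415 genes (3.57%) rested on 1 library, because without it their mean in that tissue was under 1 CPM, and 374 members had a mean under 1 CPM in at least 1 of the 4 groups.

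RNA was sequenced from aorta or from the end of the major lobe of the liver of wild-type female C57BL/6 mice whose ovaries had been removed at 6 to 7 weeks of age, 1 week before harvest. The tissue was kept ex vivo in DMEM for 4 h with 10 nM 17β-estradiol in ethanol or with ethanol alone, which gave 4 groups of 4 libraries: aorta with vehicle, aorta with E2, liver with vehicle and liver with E2. Every group, controls included, thus came from ovariectomized animals and from cultured tissue. Per the labels, 8 libraries came from an Ovation kit with 50 ng of RNA on 2 instruments, and 8 from a poly-A TruSeq kit with 600 ng of RNA of a single aorta or liver fragment, while the series text speaks of 2 replicates that each held tissue of 4 mice.

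The columns carry the suffixes o1, o2, n1 and n2, which no label explains, and libraries are called here by them. Where samples of a group share animals or a pool, the p-values measure only the spread between these libraries. Gene counts per library totalled 6042073 to 19823982 for vehicle aortas, 6471319 to 16905441 for E2 aortas, 5210693 to 13078032 for vehicle livers and 3896733 to 11796977 for E2 livers. Rn45s, a ribosomal RNA precursor, made up as much as 34.5% of the counts of liver o libraries and no more than 6.20% in the rest. The labels held against their markers: the summed level of 29 smooth muscle contractile genes was 18769 CPM or more in every aorta library and 2954 CPM or less in every liver library, and that of 43 hepatocyte genes was 102099 CPM or more in liver and 835 CPM or less in aorta.

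Estradiol acts mainly through the estrogen receptors alpha and beta, ligand-activated transcription factors that bind estrogen response elements or act through other bound factors, and through coactivators and corepressors that set how strongly a bound receptor acts on a gene. A membrane receptor, encoded by Gper1, also binds it. In the vessel wall estrogen is known for effects on endothelial and smooth muscle cells and on responses to injury, and in liver for effects on lipid metabolism and on secreted proteins. In bulk tissue, fewer cells of a type and less RNA per cell cannot be told apart.

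The consensus estrogen response element is a palindrome of a pair of half-sites, AGGTCA, and its core was searched as GGTCANNNTGACC, where N is any base. In the 250 bases before the start sites of RefSeq genes (GRCm38.p6), on both strands, the half-site was present in 1124 of 8774 members with a promoter entry (12.8%) and in 4260 of all 27025 genes (15.8%). The palindrome was present in 0 members and in 18 of all genes (0.0666%), and it contains a half-site of 5 bases on each strand, not the full AGGTCA. Of the 24 leading genes below, 17 had an entry and 2 of these (11.8%) held the half-site, a share near that of the members. They are printed as the leading genes with a match, 5′ to 3′ on the strand of the gene, with the match in capitals. The Tmem127 window is chr2:127247698-127247947 on the plus strand and the Has1 window is chr17:17855189-17855438 on the minus strand.
Tmem127: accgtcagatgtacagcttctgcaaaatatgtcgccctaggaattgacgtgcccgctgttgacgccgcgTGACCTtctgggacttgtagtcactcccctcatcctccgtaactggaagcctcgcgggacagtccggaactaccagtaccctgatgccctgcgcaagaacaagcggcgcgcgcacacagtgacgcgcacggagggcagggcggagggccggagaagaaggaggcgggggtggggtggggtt
Has1: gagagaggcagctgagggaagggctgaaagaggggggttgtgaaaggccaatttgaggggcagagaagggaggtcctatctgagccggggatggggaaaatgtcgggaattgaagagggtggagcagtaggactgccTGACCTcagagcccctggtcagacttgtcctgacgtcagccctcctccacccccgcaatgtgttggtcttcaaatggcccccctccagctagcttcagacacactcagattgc
In Tmem127 the match began 181 bases before the start, and in Has1 113 bases before it. A match of these letters is not a site shown to be bound.

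No member had an E2 effect that differed between aorta and liver past the threshold. The test was edgeR's quasi-likelihood interaction test with Benjamini-Hochberg adjustment over all 14190 genes, at an adjusted p under 0.05, and it called 0 of 14190 genes (0%). Sfrp4 had the smallest adjusted p, 0.218. Without adjustment, 528 of 11628 members (4.54%) had p under 0.05, where 581.4 are expected, 228 with a higher effect in aorta and 300 with a lower one. Over all tested genes such p-values were found in 2.32% for higher and in 3.04% for lower effects. Among tested genes outside the selection rule they made up 233 of 2562 (9.09%), and there the median standard error (SE) of the difference was 1.06 on the log2 scale, against 0.416 among members. On the same genes and model, DESeq2 called 11 members, 6 higher and 5 lower, and limma voom called 0. With the suffixes as a replicate block edgeR called 1, Sfrp4 (adjusted p 0.0462). The 11 of DESeq2 were Arhgap27, Copz1, Dgkb, Faah, Flrt1, Has1, Kif7, Mmp19, Myo18a, Sfrp4 and Synj2.

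The differences centred on 0. Their median was 0.01, 5956 were above and 5672 below 0, and the central 90% lay between −0.88 and 0.81. A size over 1, or more than a doubling between the tissues, was found for 728 members (6.26%). The SE of a difference, with a middle range of 0.33 to 0.55, was larger than that of the effect in aorta (median 0.28) or in liver (median 0.30) alone. A difference of tissues is thus measured here less precisely than either effect.

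Neither tissue gave a call in the same fit. In aorta 0 genes passed (0%), and the smallest p was that of Tmod1, which encodes tropomodulin, a cap of actin filaments (adjusted p 0.0813, edgeR). The unadjusted p was under 0.05 for 116 members with a higher and 243 with a lower level in E2 aortas, against a background of 1.07% and 2.52% of all tested genes. In liver 0 genes passed too (0%), and the smallest p was that of Angptl4, whose product inhibits lipoprotein lipase (adjusted p 0.0939, edgeR). There the unadjusted p was under 0.05 for 299 members with a higher and 320 with a lower level, against a background of 2.68% and 3.09%. DESeq2 called 21 members in aorta and 11 in liver, and limma voom 5 in aorta and 0 in liver. The replicate block, which adds the pairing of n1 and n2 to the shared levels of o1 and o2, called 5 in aorta (Mmp3, Mmp19, Myo18a, Sytl5 and Tmod1) and 1 in liver (Sfrp4).

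A difference between tissues can come from either side, and the members were sorted by that. Of all 11628, 6610 (56.8%) had effects of opposite sign in aorta and liver. Of the 528 with an unadjusted p under 0.05 for the difference, 488 (92.4%) did, and since these were selected on the difference the share is a description. The liver effect was the larger in 353 of the 528 and the aorta effect in 175. Over all 11628 members the split leaned the same way, with the liver effect the larger in 7121 and the aorta effect in 4507. An unadjusted p under 0.05 (edgeR) was found for 359 of all 11628 members in aorta and for 619 in liver. In both tissues it was found for 17, 9 with opposite signs and 8 with the same sign. Whether that overlap departs from the overlap of unrelated effects was not tested.

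**Figure D1:**
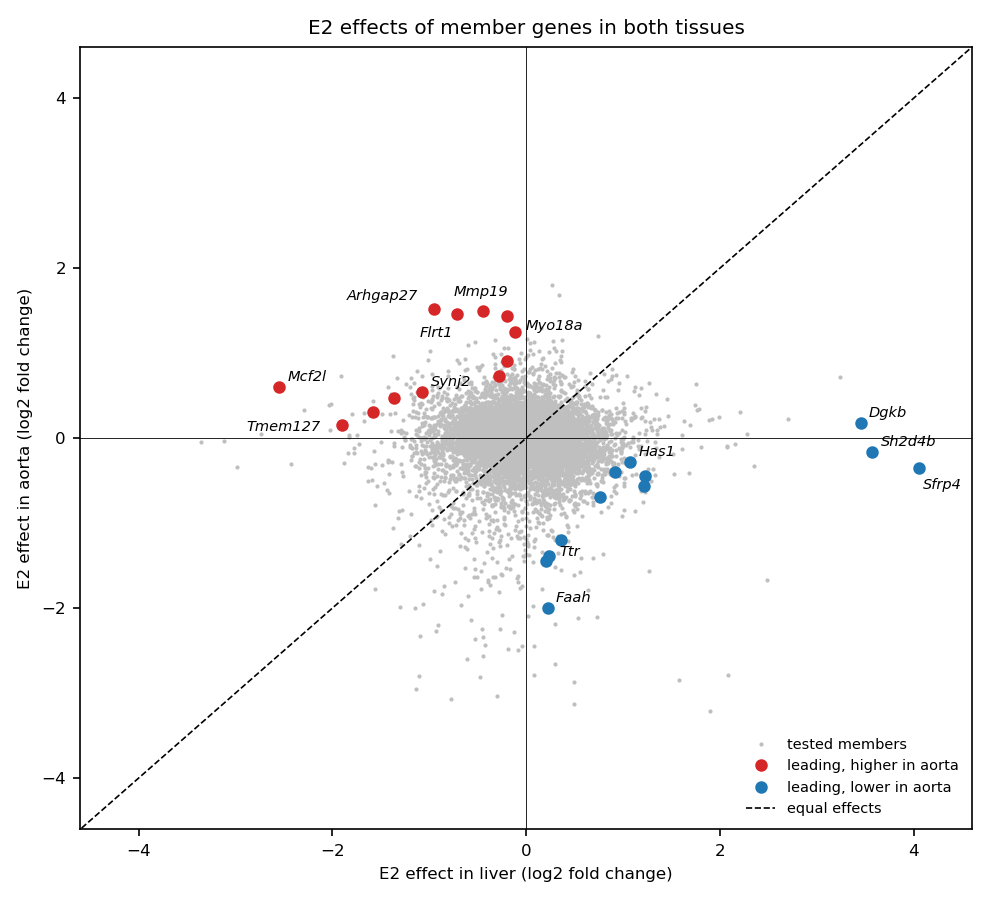
E2 effect in aorta (vertical axis, log2 fold change from the edgeR fit) against the E2 effect in liver (horizontal axis, log2 fold change) for 11628 tested members, grey, with the 24 leading genes in red (higher effect in aorta) and blue (lower). The dashed line marks equal effects, and 3 members lie outside the axes. Faah lies low on the aorta axis and Sfrp4 far out on the liver axis. Without the highest library, the aorta mean of Faah was 0.888 CPM and the liver mean of Sfrp4 0.715 CPM, under the selection rule.

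The leading genes are the 12 with the smallest p among members whose difference was above 0 in each of o1, o2 and n, and the 12 with the smallest p among those below 0 in each, where a difference within a library class was taken on log2(CPM + 1) with n1 and n2 averaged. Their agreement in sign is therefore a condition of the choice. Their differences ran from 1.02 to 3.15 and from −4.40 to −1.32, and their adjusted p from 0.218 to 0.697 (edgeR), so none was called. Effects in the tissues were of opposite sign in 23 of the 24, with the liver effect the larger in 13.

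Mmp19 encodes a matrix metalloproteinase, one of the enzymes that cut extracellular matrix. In vehicle aortas its level was 90.0, 93.1, 75.9 and 25.5 CPM in o1, o2, n1 and n2, and in E2 aortas 202, 244, 174 and 155 CPM. In vehicle livers it was 56.1, 135, 32.9 and 28.1 CPM, and in E2 livers 50.2, 54.1, 28.1 and 26.8 CPM. The aorta groups did not overlap, while the liver groups did, with the vehicle library o2 standing high. The effect was 1.50 ± 0.28 (SE) in aorta and −0.45 ± 0.29 in liver, a difference of 1.94 ± 0.40 (adjusted p 0.450, edgeR).

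Myo18a, which encodes an unconventional myosin, varied little within the aorta groups. It stood at 94.6, 82.7, 89.9 and 103 CPM in vehicle aortas and at 204, 229, 224 and 227 CPM in E2 aortas, a mean of 92.5 ± 8.46 against 221 ± 11.4 CPM (SD, n = 4). In liver it was at 477, 261, 178 and 157 CPM with vehicle and 391, 325, 160 and 117 CPM with E2. The E2 aortas were all above the vehicle aortas, and the liver groups covered much the same range. The difference was 1.36 ± 0.28 (adjusted p 0.450, edgeR), of which the aorta effect was 1.25 ± 0.20 and the liver effect −0.11 ± 0.20.

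Synj2 encodes synaptojanin 2, a phosphoinositide phosphatase, and its difference came mainly from liver. Liver levels were 21.2, 25.3, 17.1 and 12.4 CPM with vehicle and 12.5, 14.6, 6.55 and 3.30 CPM with E2, lower with E2 at every suffix although the groups overlapped. In aorta they were 235, 361, 216 and 134 CPM with vehicle and 305, 549, 298 and 230 CPM with E2, higher at every suffix and again overlapping. The effects were 0.54 ± 0.23 in aorta and −1.07 ± 0.26 in liver, and the difference 1.61 ± 0.34 (adjusted p 0.450, edgeR).

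Flrt1, which encodes a leucine-rich repeat membrane protein, was low in both tissues. Its aorta levels were 1.49, 1.34, 5.82 and 5.25 CPM with vehicle and 2.49, 6.17, 14.3 and 14.5 CPM with E2. Its liver levels were 9.57, 5.99, 4.73 and 5.21 CPM with vehicle and 8.45, 3.34, 2.73 and 2.20 CPM with E2. At each suffix aorta was higher and liver lower with E2, and the groups overlapped in both tissues. The difference was 2.17 ± 0.47, made of 1.46 ± 0.33 in aorta and −0.71 ± 0.33 in liver (adjusted p 0.450, edgeR).

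Arhgap27 encodes a GTPase-activating protein. In aorta it was at 1.82, 1.40, 4.79 and 7.02 CPM with vehicle and at 2.93, 5.87, 19.5 and 16.0 CPM with E2. In liver it was at 6.47, 8.30, 3.82 and 5.06 CPM with vehicle and at 7.09, 3.24, 2.07 and 1.10 CPM with E2. The liver library o1 went the other way from o2, n1 and n2. The difference was 2.47 ± 0.54, from 1.52 ± 0.37 in aorta and −0.95 ± 0.39 in liver (adjusted p 0.450, edgeR).

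The next 7 genes with a higher effect in aorta were split between a larger effect in aorta and a larger effect in liver. Caskin2, a scaffold protein gene, was at 1.43 ± 0.29 in aorta and −0.20 ± 0.29 in liver. Rreb1, which encodes a zinc finger transcription factor, was at 0.91 ± 0.20 and −0.20 ± 0.20, and Dab2ip, which encodes a Ras GTPase-activating protein, at 0.73 ± 0.19 and −0.28 ± 0.20. In the other 4 the liver effect was the larger. The kinesin genes Kif3c and Kif7 were at −1.59 ± 0.37 and −1.36 ± 0.37 in liver, with every vehicle liver above every E2 liver (8.13 to 9.46 against 1.83 to 5.13 CPM for Kif3c, 5.21 to 6.73 against 0.734 to 2.84 CPM for Kif7).

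Tmem127, whose upstream window is printed above and which encodes a transmembrane tumour suppressor, was at −1.90 ± 0.43 in liver, from 3.88, 5.36, 3.46 and 3.99 CPM with vehicle to 0.818, 1.36, 1.42 and 0.367 CPM with E2. Those groups did not overlap, while its aorta effect was 0.15 ± 0.35. Mcf2l, a guanine nucleotide exchange factor gene, had the largest difference of the 12, 3.15 ± 0.85, and rested on the fewest liver counts, 56 over the vehicle and 8 over the E2 libraries. It met the 1 CPM rule in liver through the vehicle group, at 1.94 CPM against 0.361 CPM with E2, and its liver mean was 0.878 CPM without the vehicle liver o2. A difference of this kind is favoured by the rule.

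**Figure D2:**
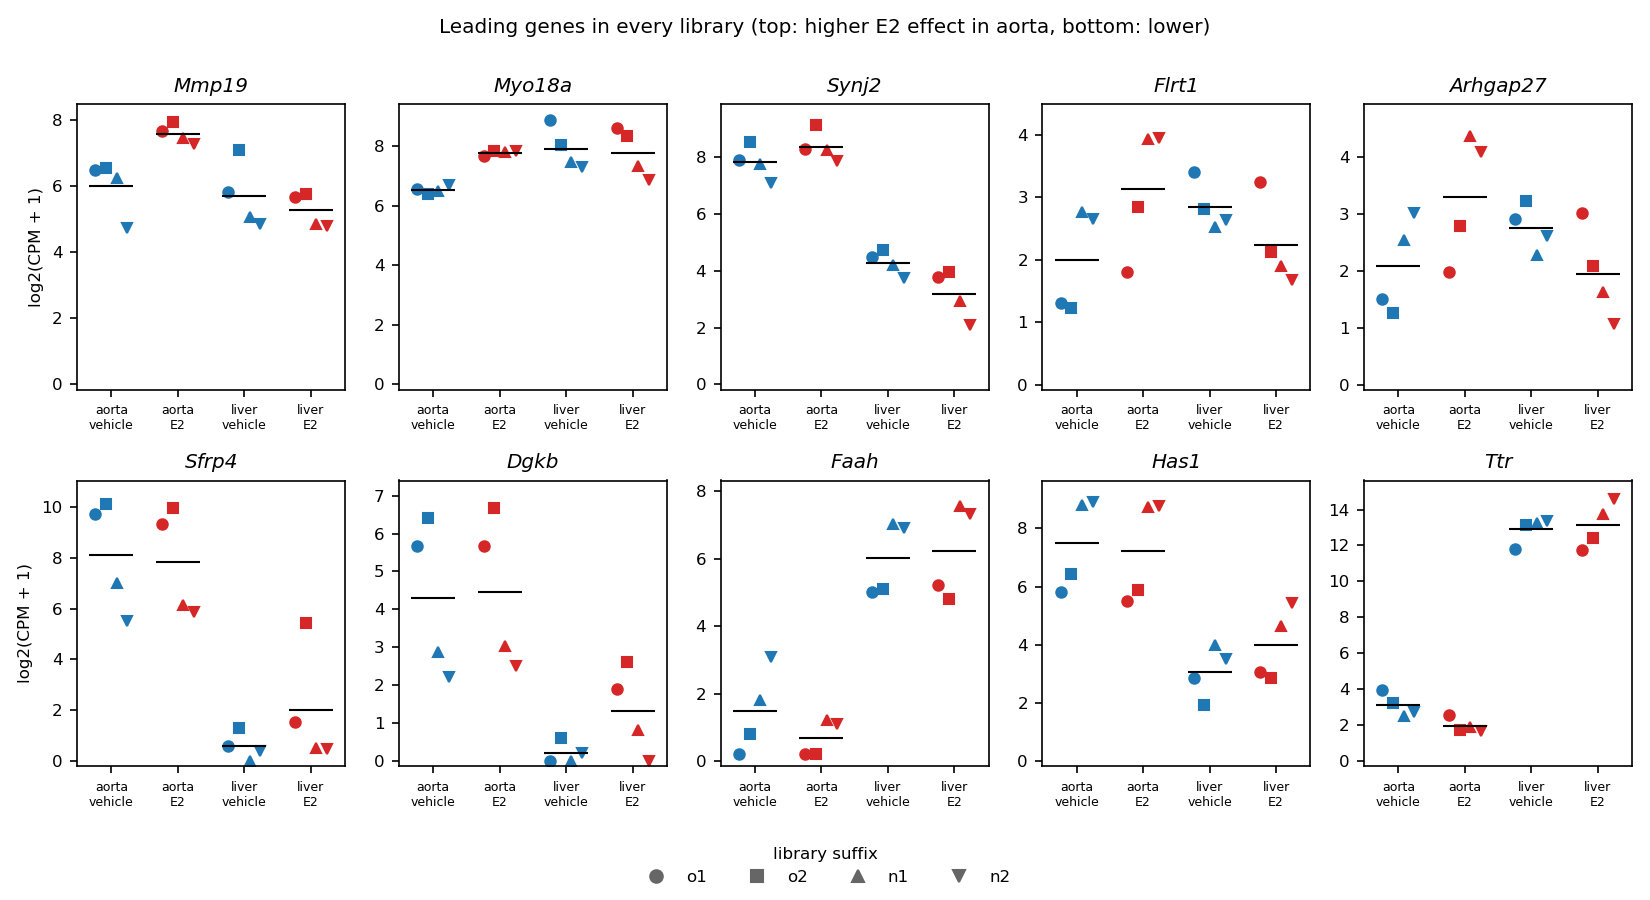
Level of 10 leading genes in every library, log2(CPM + 1), in aorta and liver with vehicle (blue) and E2 (red), with a marker shape for each suffix and a black line at the mean of 4 libraries. Myo18a and Mmp19 separate by treatment in aorta, whereas the Sfrp4 difference follows a single E2 liver library, o2.

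Of the genes with a lower effect in aorta, Sfrp4, which encodes a secreted Wnt inhibitor, had the smallest p of all members (1.54e-05) and a value that rested on 1 library. In liver it was at 0.517, 1.47, 0 and 0.307 CPM with vehicle and at 1.91, 42.7, 0.436 and 0.367 CPM with E2. The library o2 held 409 of the 421 counts of the E2 livers, and without it the liver mean over 7 libraries was 0.715 CPM, under the 1 CPM of the selection rule. In aorta it was at 850, 1125, 126 and 44.3 CPM with vehicle and at 640, 984, 69.3 and 58.1 CPM with E2. The difference was −4.40 ± 0.73 with the liver effect at 4.05 ± 0.67, and it became −1.98 without the E2 liver o2 and −1.97 without the vehicle liver o2 (adjusted p 0.680 and 0.681, edgeR).

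Dgkb, which encodes a diacylglycerol kinase, had a difference of −3.28 ± 0.70 (adjusted p 0.450, edgeR) from few liver counts. Its liver levels were 0, 0.526, 0 and 0.153 CPM with vehicle and 2.73, 5.11, 0.764 and 0 CPM with E2, which is 6 against 66 counts. Its aorta levels were 50.2, 84.5, 6.37 and 3.69 CPM with vehicle and 50.1, 101, 7.15 and 4.72 CPM with E2. The aorta groups covered the same range, and the liver level was higher with E2 in o1, o2 and n1 and not in n2. Its liver mean was 1.16 CPM over all 8 libraries and 0.596 CPM without the E2 liver o2, so it met the selection rule through the group in which it is high.

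Faah encodes the enzyme that degrades the endocannabinoid anandamide, and there the difference lay in aorta. Its aorta levels were 0.165, 0.756, 2.53 and 7.45 CPM with vehicle and 0.147, 0.149, 1.32 and 1.14 CPM with E2. Its liver levels were 31.0, 33.3, 130 and 120 CPM with vehicle and 36.0, 26.7, 186 and 160 CPM with E2. The vehicle aorta n2 stood high, and without it the aorta mean was 0.888 CPM, under the 1 CPM of the selection rule. The difference was −2.22 ± 0.50 (adjusted p 0.493, edgeR), and −1.31 with suffix n2 left out in both tissues.

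Has1, the second gene whose upstream window is printed, encodes a hyaluronan synthase. In liver it was at 6.21, 2.84, 14.7 and 10.4 CPM with vehicle and at 7.36, 6.16, 24.0 and 41.8 CPM with E2, higher at each suffix. In aorta it was at 55.8, 85.8, 446 and 477 CPM with vehicle and at 44.9, 57.4, 426 and 431 CPM with E2, slightly lower at each suffix. In both tissues the treatments overlapped, also within the o libraries taken alone, and the n libraries were above the o libraries. The difference was −1.35 ± 0.31, with 1.07 ± 0.24 in liver and −0.28 ± 0.20 in aorta (adjusted p 0.493, edgeR).

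Ttr encodes transthyretin, a thyroid hormone and retinol carrier made by hepatocytes. In aorta it was at 14.2, 8.31, 4.67 and 5.60 CPM with vehicle and at 4.98, 2.23, 2.69 and 2.17 CPM with E2. In liver its mean was 8300 ± 3165 CPM with vehicle and 11804 ± 9554 CPM with E2 (SD, n = 4). The aorta level was lower with E2 at every suffix, and the liver level was higher in n1 and n2 and lower in o1 and o2. The difference was −1.62 ± 0.39 (adjusted p 0.647, edgeR), with −1.38 ± 0.29 in aorta.

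The other leading genes with a lower effect in aorta included a pair of hepatocyte secretory genes and a group higher in E2 livers. Plg, the plasminogen gene, and Serpinc1, the antithrombin gene, were at −1.19 ± 0.33 and −1.44 ± 0.35 in aorta, where their vehicle means were 2.51 and 2.94 CPM, and at 0.36 ± 0.24 and 0.20 ± 0.27 in liver. Plg was at 6.28, 1.16, 1.19 and 1.42 CPM in vehicle aortas and at 1.91, 0.446, 0.832 and 0.571 CPM in E2 aortas. It met the 1 CPM rule in aorta through the vehicle group, so its lower effect there is favoured by the rule. Copz1, which encodes a subunit of the COPI vesicle coat, was at 17.1, 24.9, 22.6 and 32.5 CPM in vehicle livers and at 36.0, 59.2, 42.3 and 45.9 CPM in E2 livers. Those groups did not overlap, and its difference was −1.32 ± 0.32 (adjusted p 0.647, edgeR).

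The mitochondrial ribosomal protein genes Mrpl48 and Mrps12 had differences of −1.78 ± 0.47 and −1.45 ± 0.42, with liver effects of 1.21 ± 0.35 and 0.76 ± 0.30. Sssca1 was at −1.66 ± 0.47, with 1.22 ± 0.34 in liver. Sh2d4b, which encodes an SH2 domain protein, was at −3.74 ± 0.96 on 8 counts over vehicle livers and 77 over E2 livers, at means of 0.249 and 2.95 CPM. It met the 1 CPM rule in liver through the E2 group, so a lower effect in aorta is favoured by the rule.

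The 3 library classes were then set side by side, since each gives a difference of its own. The difference was above 0 in o1, o2 and n in 1610 members (13.8%), as in 13.7% of all tested genes, and below 0 in all of them in 1184 (10.2%), as in 10.2% of all tested genes. Across members the difference in o1 had a Pearson r of −0.01 with that in o2 and of −0.04 with that in n, and o2 had 0.05 with n. At 10 CPM or more in both tissues, with 6256 genes, the values were −0.02, −0.12 and 0.10. These are descriptions across genes, which are not independent replicates and share library, depth and base composition.

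In aorta the o2 and n classes had the closest effects, with r 0.36 over these 6256 genes, while o1 had −0.08 with o2 and −0.05 with n. In liver no pair of classes exceeded 0.01, and o2 had −0.12 with n. The effects in aorta and liver, taken from the fit of all 16 libraries, had r −0.04 over all members and −0.18 at 10 CPM or more. The direct test of the n against the o libraries for the difference between tissues called 0 of 14190 genes (0%). There 662 members had an unadjusted p under 0.05, limma voom called 0, DESeq2 called 2, and the median SE of that comparison was 0.84.

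**Figure D3:**
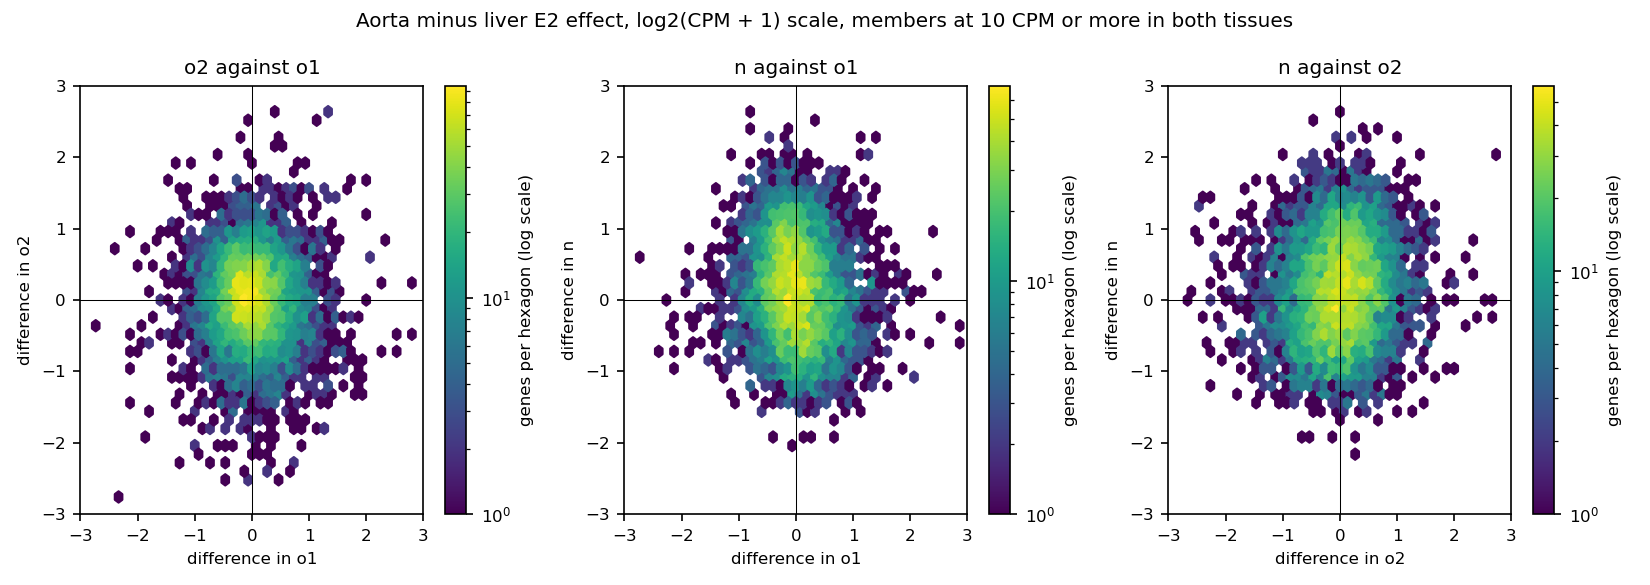
Aorta minus liver E2 effect on the log2(CPM + 1) scale in 1 library class against another, for 6256 members at 10 CPM or more in both tissues, with colour for the number of genes in a hexagon on a log scale. The clouds are round or upright, with Pearson r of −0.02, −0.12 and 0.10 from left to right, and the n class spreads over the widest range.

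The difference moved with transcript length. For 11579 of 11628 members (99.6%) a length was known, and the Spearman correlation across genes was 0.31 for the difference, 0.25 for the aorta effect and −0.24 for the liver effect. Over 5 groups of like size, from the shortest to the longest, the median difference was −0.29, −0.06, 0.05, 0.11 and 0.20. An unadjusted p under 0.05 with a lower effect in aorta was found for 152 of 2316 members of the shortest group and for 20 of 2316 of the longest.

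The gradient was widest in the n libraries, where the median went from −0.41 to 0.47. In o1 it went the other way, from 0.08 to −0.08, and in o2 from −0.12 to 0.08. With a correction for length and GC content in each library the medians of the 5 groups lay between −0.09 and −0.02. The correction was fitted on length and GC content in these same libraries, so level medians follow from it and are no separate result. The difference also moved with level: from the members lowest in aorta relative to liver to those highest, its median went from −0.19 to 0.14. That rise was in the n libraries alone, from −0.31 to 0.47. In o1 the median went from 0.09 to −0.07 and in o2 from 0.06 to −0.10. The level ratio includes the E2 libraries, so it is not independent of the difference.

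**Figure D4:**
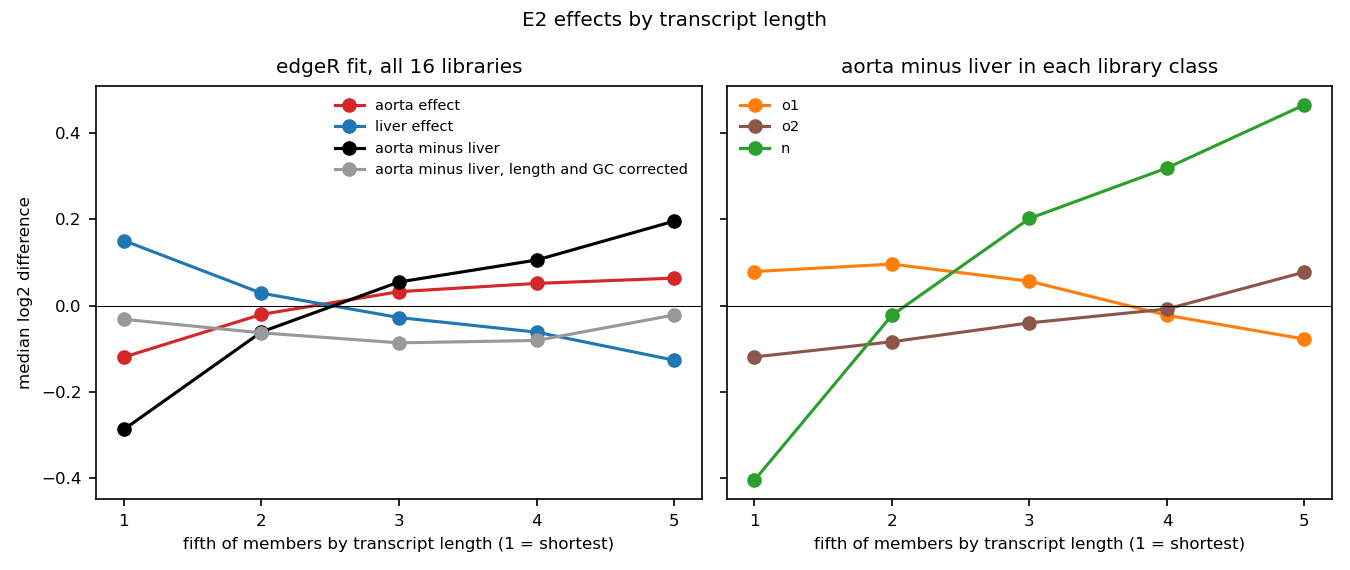
Median E2 effect (log2) for members in 5 groups of like size ordered by transcript length, shortest first, for aorta, liver and their difference in the edgeR fit (left) and for the difference in each library class on log2(CPM + 1) (right). The difference rises from −0.29 to 0.20 in the fit and from −0.41 to 0.47 in the n libraries. The corrected medians lie between −0.09 and −0.02, and the correction, fitted on length in each library, is built to level them.

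Gene lists were described by counts and medians, beside the median of 0.01 over all tested members. With the length and GC correction the median over all members was −0.05, and 5195 of 11579 were higher. The edgeR fit called no list member, while DESeq2 called 11 members of the whole set, Mmp19 of the metalloproteinase list among them. Beside a list's median stands the range, or 1 end of the range, that it took when 1 library, or 1 suffix in every group, was left out. Lists of the estrogen system came first. Of 20 estrogen receptor and coregulator genes 14 were higher and 6 lower (median 0.38, and 0.18 with the length and GC correction). By library class the medians were 0.00 in o1, 0.33 in o2 and 0.67 in n, and with libraries left out the median ran from 0.16, without suffix o2, to 0.58, without suffix o1. The smallest p among them was that of Gata2, a transcription factor gene (1.87 ± 0.63). Its liver levels were 3.10, 1.16, 4.00 and 3.37 CPM with vehicle and 0.545, 0.522, 0.982 and 1.47 CPM with E2. Gata2 met the 1 CPM rule in liver through the vehicle group, so its higher effect in aorta is favoured by the rule. Ep300, which encodes a histone acetyltransferase coactivator, was at 0.72 ± 0.34. Esr1, the gene of estrogen receptor alpha, was at 0.14 ± 0.34, from 7.79 ± 4.62 to 9.57 ± 7.43 CPM in aorta and from 18.1 ± 13.5 CPM to 17.7 CPM, with libraries from 7.34 to 35.5 CPM, in liver (SD, n = 4). The coregulator gene Nrip1 was at 0.44 ± 0.34.

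A list of 37 genes with known estrogen responses in other organs (uterus, breast) split into 15 higher and 22 lower (median −0.12, from −0.25 without the E2 liver n2 to 0.14 without suffix n1). Adora1, an adenosine receptor gene, was at 2.02 ± 0.58, with the liver effect at −1.59 ± 0.43. Myc, a growth-related transcription factor gene, was at −0.95 ± 0.32 and higher in E2 livers by 0.71 ± 0.23, and Gadd45g at −1.10 ± 0.50. Pgr, Greb1 and Gper1 did not reach 1 CPM in liver and are no members. The Pgr difference of 4.09 ± 1.46 rested on 26 counts in vehicle livers, all of them in o2, where its level was 2.73 CPM, and without the suffix o2 it was −2.27. In aorta its effect was 1.98 ± 0.58 in the same fit.

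Genes of the hepatocyte lay lower. Of 43 list genes 25 were members, and all 25 had a lower effect in aorta (median −0.91, and −0.82 with the correction, where 23 of 25 did). An unadjusted p under 0.05 was found for 13, against 2.58% of all members with a lower effect. The level rule can favour a lower aorta effect where a gene reaches 1 CPM only through the vehicle aortas, and 3 of the 25 had an E2 aorta mean under 1 CPM. Of all 41 list genes tested, members or not, 39 had a lower effect (median −0.93). With libraries left out the median of the members ran from −1.22, without suffix o2, to −0.53, without suffix n2. They were led by Ttr, Hpd, a tyrosine catabolism enzyme gene (−1.48 ± 0.46, with aorta means of 1.74 CPM with vehicle and 0.721 CPM with E2), and Apoa1, the apolipoprotein gene of high-density lipoprotein (−1.33 ± 0.41). In aorta all 25 were lower with E2 (median −0.65) and in liver 23 of 25 higher (median 0.23). By library class the medians were −0.59 in o1, 0.25 in o2 and −1.28 in n.

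The summed level of the hepatocyte genes moved with these values. It was 835 CPM in the vehicle aorta o1 and 382 to 449 CPM in the other vehicle aortas, against 301 to 556 CPM in E2 aortas. In liver it was 209210 and 187436 CPM in n1 and n2 with vehicle and 309935 and 364107 CPM with E2, while in o2 it was 164478 CPM with vehicle and 110091 CPM with E2. The part of the list's summed level in its difference was not tested.

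Among 32 acute phase, coagulation and complement genes 21 were lower (median −0.18, from −0.32 without suffix n2 to 0.02 without suffix n1), led by Plg, Serpinc1 and the complement factor gene Cfb (−0.72 ± 0.30). Lymphocyte markers were lower in 21 of 23 (median −1.23), with medians of 0.31 in o1, −1.12 in o2 and −0.95 in n. In the fit of all libraries that direction rested on 1 library: without the vehicle aorta n2 the median was 0.23. Their summed level was 1440 CPM in that library and 56.0 to 220 CPM in the other vehicle aortas. The o2 class, at −1.12, holds no n2 library, and in aorta o2 the sum was 220 CPM with vehicle and 79.9 CPM with E2. Without the vehicle aorta n2, the B cell tetraspanin gene Cd37 went from −2.29 ± 0.95 to −0.45. The lymphotoxin beta gene Ltb went from −2.64 ± 1.14 to −0.50, and Cd8b1 from −2.68 to −1.71. Cd8b1 met the 1 CPM rule in liver through the E2 group, so its lower effect in aorta is favoured by the rule.

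Macrophage markers had a higher effect in aorta than in liver in 15 of 22 (median 0.14), and their median ran from −0.22 without suffix n2 to 0.46 without suffix o2. With E2, 20 of the 22 were lower in aorta (median −0.33) and 20 in liver (median −0.39). By library class the medians of the difference were 0.28 in o1, −0.55 in o2 and 0.51 in n. Endothelial markers had a higher effect in aorta than in liver in 21 of 30 (median 0.17), with a range from −0.03 without suffix n2 to 0.34 without the vehicle liver o2. Of these, 20 were lower with E2 in aorta (median −0.08) and 26 in liver (median −0.26).

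The ribosomal and mitochondrial lists, with median transcript lengths of 1200 and 1232 bases against 3484 bases over all members, had lower effects in aorta. Of 46 cytosolic ribosomal protein genes 42 were lower (median −0.69, and −0.41 with the correction), led by Rpl14 (−1.45 ± 0.43), Rpl6 (−1.28 ± 0.40) and Rplp1 (−1.19 ± 0.41). These genes have many near-identical pseudogenes, so their counts are uncertain. Of 47 mitochondrial respiratory chain genes 40 were lower (median −0.32), and the median was −0.06 with the correction. By class the ribosomal median was 0.28 in o1, −0.67 in o2 and −0.92 in n, and the mitochondrial median was 0.17, 0.23 and −0.79, below 0 in the n libraries alone. With libraries left out the ribosomal median ran from −0.93, without suffix o1, to −0.36, without the vehicle aorta n2, and the mitochondrial median from −0.48, without suffix o2, to −0.03, without suffix n2.

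**Figure D5:**
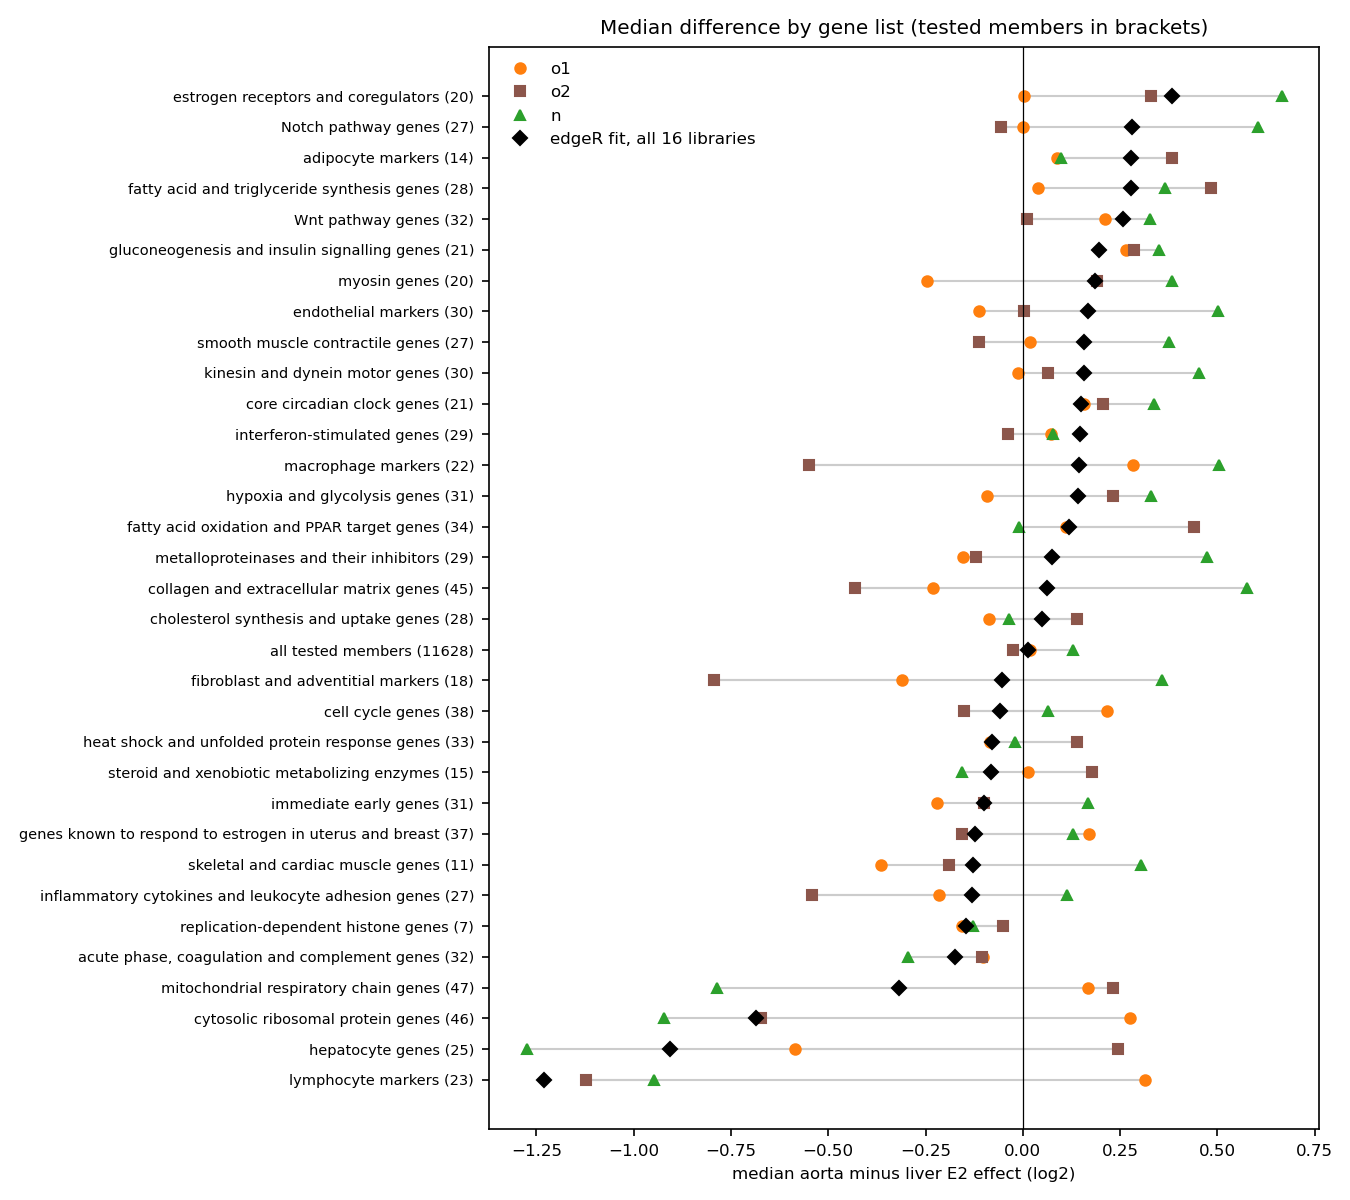
Median aorta minus liver E2 effect (log2) of each gene list, with the number of tested members in brackets: the edgeR fit of all 16 libraries (black diamonds) and each library class on log2(CPM + 1) (o1 circles, o2 squares, n triangles). Hepatocyte, lymphocyte and ribosomal protein lists lie lowest, at −0.91, −1.23 and −0.69, with library classes far apart, and the lymphocyte median is 0.23 without the vehicle aorta n2.

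Lists of lipid genes were mostly higher or near 0. Genes of fatty acid and triglyceride synthesis numbered 28, of which 24 were higher (median 0.28, and 0.22 with the correction), and the medians by class were 0.04, 0.48 and 0.37. With libraries left out the median ran from 0.18, without the E2 liver o2, to 0.42, without suffix o1. Elovl3, a fatty acid elongase gene, was at 2.04 ± 0.60 with −1.34 ± 0.46 in liver, Gpam, which encodes the first enzyme of triglyceride synthesis, at 1.07 ± 0.39 with 0.84 ± 0.28 in aorta, and Acacb, an acetyl-CoA carboxylase gene, at 0.69 ± 0.31. Of 34 fatty acid oxidation and PPAR target genes 24 were higher (median 0.12, and 0.06 with the correction), and the median was −0.02 without the E2 liver o2. There Angptl4 was at 0.82 ± 0.25, lower in both tissues but more so in liver (−1.15 ± 0.18 against −0.33 ± 0.17), and Fabp1, a liver fatty acid binding protein gene, at −1.02 ± 0.39. Cholesterol synthesis and uptake genes were higher in 18 of 28 (median 0.05), and in 9 of 28 with the correction (median −0.12, against −0.05 over all members). With libraries left out the uncorrected median ran from −0.06, without suffix n2, to 0.15, without the vehicle aorta n1.

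Vessel wall and signalling lists had small medians. Smooth muscle contractile genes were higher in 16 of 27 (median 0.16, and −0.04 without the vehicle aorta o2), with Cnn2, a calponin gene, at 0.77 ± 0.43. Collagen and extracellular matrix genes were higher in 26 of 45 (median 0.06), with −0.23 in o1, −0.43 in o2 and 0.58 in n, and in 13 of 45 with the correction (median −0.06). Without suffix n2 that median was −0.28. Notch pathway genes were higher in 19 of 27 (median 0.28), led by the receptor genes Notch2 (0.79 ± 0.42) and Notch1 (0.76 ± 0.41), but the median was −0.08 without suffix n2. Wnt pathway genes were higher in 20 of 32 (median 0.26, and 0.03 with the correction), with a range from 0.12 without suffix n2 to 0.46 without suffix n1. An unadjusted p under 0.05 was found for 0 of them with a higher and 1 with a lower effect, against 1.96% and 2.58% of all members. Inflammatory cytokine and leukocyte adhesion genes were lower in 18 of 27 (median −0.13, from −0.48 without suffix n2 to −0.01 without the vehicle liver n1), led by Cxcl1, a neutrophil chemokine gene (−0.60 ± 0.30), whose aorta effect was −0.67 ± 0.21. Immediate early genes were lower in 17 of 31 (median −0.10, and 0.14 without suffix n1). Circadian clock genes were higher in 15 of 21 (median 0.15, from 0.09 without suffix n2 to 0.34 without suffix o2).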

How the data were processed

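RNA was measured in 16 libraries, 4 in each of 4 groups. The authors deposited 1 table of read counts per gene symbol. Its values are entered as estimated counts, since each deposited column ends with a percentage, but every gene value was whole and rounding changed nothing. Per the submitters' processing notes, Bowtie 0.12.5, HTSeq 0.4.5p7, edgeR 3.4.2 and build mm9 were named. No source used here gives the annotation or the strand setting, and reads of antisense or overlapping genes cannot be told apart. Another 8 lines that name no gene stayed out. They held reads in no gene, 48.0% to 75.2% of a library, and ambiguous reads, 0.0452% to 0.523%.

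The tests used edgeR 4.0.16 under R 4.3.3 (glmQLFit, glmQLFTest, TMM, filterByExpr by group with a minimum count of 10 and a minimum total of 15, Benjamini-Hochberg adjustment over all tested genes). Column names gave tissue and treatment, and groups rest on these alone. The model has a level for each suffix class (o1, o2, n) within each tissue and an E2 effect for each tissue, and it leaves 8 residual degrees of freedom. The SE was derived from the F test: the size of the log2 fold change over the root of F. CPM use TMM library sizes. The script was tested on simulated data. Transcript length and GC content came from the longest GENCODE vM21 transcript of a symbol and entered as splines of 4 degrees of freedom in each library. DESeq2 1.42.0 and limma 3.58.1 were alternatives, along with other scalings, filters, covariates and left-out libraries.

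Named genes are the 12 of smallest p in each direction with 1 sign in o1, o2 and n, the 3 of smallest p in each list (not all printed), Pgr, Greb1, Esr1, Gper1 and Nrip1, and those next to the threshold. The members and gene lists were chosen with earlier results of these data known. Some of these results are not reported here. Depth is given with the results.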

Additional observations from a re-analysis of the deposited data

Results flagged for a closer look

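In 9 of 148 groups of 4 libraries, the highest library stood apart from the other 3 by more than Dixon's 95% critical value for the gap over the range. For normal values of a single kind, chance flags about 1 in 20 groups. These groups mix library classes, and where the other 3 libraries are at 0 any count is flagged. That rate need not hold here. In liver with E2, Sfrp4 was at 42.7 CPM in o2 against 0.367 to 1.91 CPM in the others, Kif3c at 5.13 CPM in n1 against 1.83 to 2.09 CPM, and Gper1 at 1.04 CPM in o2 against 0 in the others. In liver with vehicle, Pgr was at 2.73 CPM and Greb1 at 0.526 CPM, both in o2, against 0 in the others. In aorta with vehicle, Copz1 was at 20.5 CPM in o2 against 16.3 to 17.0 CPM, and Plg at 6.28 CPM in o1 against 1.16 to 1.42 CPM. The summed level of hepatocyte genes was 835 CPM in o1 against 382 to 449 CPM, and that of lymphocyte markers was 1440 CPM in n2 against 56.0 to 220 CPM, both in aorta with vehicle.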

How the results depend on the processing

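The count of members called for the difference between tissues, 0, became 11 with DESeq2, 2 with the o libraries alone (Cpxm2 and Sfrp4), 1 with the replicate block and 1 with the length and GC correction (Sfrp4 both times, adjusted p 0.0462 and 0.00860). With a library or suffix left out it ran from 0 to 2, and Faah joined Sfrp4 without the vehicle aorta n1. For aorta the count was 1 without the filter on low counts (Myo18a), 21 with DESeq2, and 5 with limma voom, with the replicate block and with the length correction, and 0 to 4 with a library left out. For liver it was 11 with DESeq2, 1 with the replicate block, 7 with the o libraries alone and 3 with the length correction, and 0 to 2 with a library left out. For n against o libraries DESeq2 called 2. The cause of these changes was not tested.

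In the model the vehicle and E2 libraries of o1, and those of o2, share a level in each tissue, and what the block changes is that n1 and n2 are also paired, a step no label states. With the mean of each letter removed, same-suffix deviations correlated at 0.50 for n in aorta and at −0.07 for n in liver.

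The sign turned with the o libraries alone for Ier3 (0.17), Hspe1 (0.063), Rora (−0.071), Ndufb7 (0.045), Cox4i1 (0.036) and Gstm1 (0.24), and with the n libraries alone for Wnt2b (0.28), Pgr (−1.48), Greb1 (−0.72) and Esr1 (−0.14). It turned for Esr1 with the length correction (−0.084). With a library left out, the range was −0.57 to 0.068 for Gstm1, −2.41 to 6.00 for Pgr, −2.45 to 1.86 for Greb1, −0.0098 to 0.35 for Esr1 and −0.68 to 5.46 for Gper1. Of the list medians under the other settings, 96 moved by more than the SD between the library classes and 992 did not. That SD is each list's own, so a list whose classes lie far apart can change sign without counting as moved. The collagen and extracellular matrix median, from 0.06 to −0.28 without suffix n2 at an SD of 0.53, is an example. The 992 are therefore no measure of stability. Depth limits the genes under a few CPM in one tissue, whose difference rests on few counts.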
